A study of Xenopus tropicalis with 3 samples.

Results

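Chromatin accessibility was examined around the receptors, Smads and Id genes of the bone morphogenetic protein (BMP) pathway in the urostyle, the bony rod that ends the vertebral column of frogs. The tissue came from Xenopus tropicalis tadpoles at stage 65, near the end of metamorphosis. It was profiled by ATAC-seq, which marks open chromatin by the insertion of sequencing adapters with a transposase. The series holds 1 library per stage at stages 56, 61 and 65, with no genetic change or treatment in the labels. Only the stage 65 peak list could be placed against the gene table, so no stages were compared and no replicate spread exists for any value. The labels' protocol describes crushed dissected tissue, whereas the design text speaks of laser capture. In a whole tissue, a site open in few cells and a site weakly open in many cannot be told apart.

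The regions were the gene spans of 8 named genes in the UCB_Xtro_10.0 gene table, extended by 20 kb to each side. Of these genes, 7 matched a symbol of the table: the receptor genes bmpr1a, bmpr1b and bmpr2, the Smad genes smad1 and smad6, and the Id genes id2 and id3. No symbol matched smad5, which was not analysed here. The smad9 entry lists smad5 among its synonyms, and it is described separately. The 7 regions took in 777.8 kb and 174 of the 311625 peaks in the list, 105 around receptors, 42 around Smads and 27 around Id genes. No peak fell in more than 1 region.

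BMP ligands bind a complex of type I receptor kinases, such as those encoded by bmpr1a and bmpr1b, and the type II receptor kinase encoded by bmpr2. The type II kinase activates the type I kinase, which phosphorylates receptor Smads such as Smad1, and these enter the nucleus with Smad4 and bind DNA. Smad6 is an inhibitory Smad of this branch. The Id proteins are helix-loop-helix factors without a DNA-binding domain that hold back differentiation factors, and their genes are classic direct targets of BMP signalling. The pathway is best known in skeletal tissue for driving cartilage and bone formation.

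Each peak carried a fold, the authors' ratio of the summit pileup to background. The folds fell on steps of 0.150, from which the pileup at each summit was recovered as a whole number, over a background of 5.68. The unit of the pileup is called a fragment here. Whether it was a fragment, a read or an insertion site is not given, and the intervals take each unit as an independent count. The median peak of the list had 21 fragments at its summit and a fold of 3.29. Intervals given with fragments and with peak counts are exact Poisson 95% intervals, those given with shares are exact Clopper-Pearson 95% intervals, and all of them cover counting error only. The gene table holds no strand, so the lower-coordinate end is called the left end and the higher-coordinate end the right end, and which end is the start of transcription is not known. Of 21 tissue markers found in the table, 17 had a peak within 1 kb of a gene end, among them sox9, col2a1 and runx2. The cartilage genes acan and col9a1, the epidermal gene tp63 and the haemoglobin gene hba1 had none. Such peaks do not show which cells were present, since 85.7% of all protein-coding genes had one.

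The regions of id2 and id3 held more strong peaks per length than those of the receptors. Strong peaks, with a fold of at least 4, numbered 16 of 105 around receptors (15.2%, 8.97 to 23.6), 8 of 42 around Smads (19.0%, 8.60 to 34.1) and 11 of 27 around Id genes (40.7%, 22.4 to 61.2), against 29.7% of all peaks in the list. The interval of the receptors lay below the share of the whole list, whereas those of the Smads and the Id genes included it. Among protein-coding genes with spans over 60 kb, like all 3 receptors, the median share per gene was 21.95%, with quartiles of 15.38% and 30.52%. That median lay inside the interval of the receptors' pooled share, which is not a per-gene measure. Gene by gene, the shares were 9.09% at bmpr1a, 18.0% at bmpr1b and 15.15% at bmpr2. All lay below that median, and those of bmpr1a and bmpr2 also lay below the lower quartile. Among genes with spans under 5 kb, like both Id genes, the median share was 33.33%, inside the interval of the Id genes' pooled share. The shares were 46.67% at id2 and 33.33% at id3. Per 10 kb of region, strong peaks numbered 0.187 at bmpr1a, 0.316 at bmpr1b and 0.348 at bmpr2. They numbered 0.238 at smad1 and 0.828 at smad6. They numbered 1.58 at id2 and 0.951 at id3. The receptor genes did not overlap with id2 and id3 in this measure, and smad6 stood near id3 while smad1 stood among the receptors. Id4, an Id gene outside the members, had 0.221 (0.00560 to 1.23) from 1 strong peak and also stood among the receptors, so the split does not hold for all measured Id genes. The median was 0.610 over all 21749 protein-coding genes, 0.732 over those with spans under 5 kb, the class of both Id genes, and 0.425 over those with spans over 60 kb, the class of all 3 receptors.

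The contrast between receptors and Id genes was in part shared with other genes of their length. Id3 lay between the median and the upper quartile of 1.42 of short genes, and id2 lay above that quartile. Bmpr1b and bmpr2 lay between the lower quartile of 0.262 and the median of long genes, and bmpr1a lay below that quartile. The Poisson intervals were wide, from 0.635 to 3.26 at id2 and from 0.259 to 2.43 at id3. The interval of id2 overlapped those of bmpr1a (0.0227 to 0.677) and bmpr2 (0.113 to 0.812) and not that of bmpr1b (0.145 to 0.6004), and the interval of id3 overlapped all 3. At id2, 2 of the 7 strong peaks also overlapped a neighbouring coding gene, and without them its density was 1.13 per 10 kb. That density still counts the strong peaks at 137425784 to 137427868 and at 137437861 to 137439422. They overlapped the lncRNA genes LOC108647704 and LOC116411071. At id3 none of the 4 did.

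**Figure D1:**
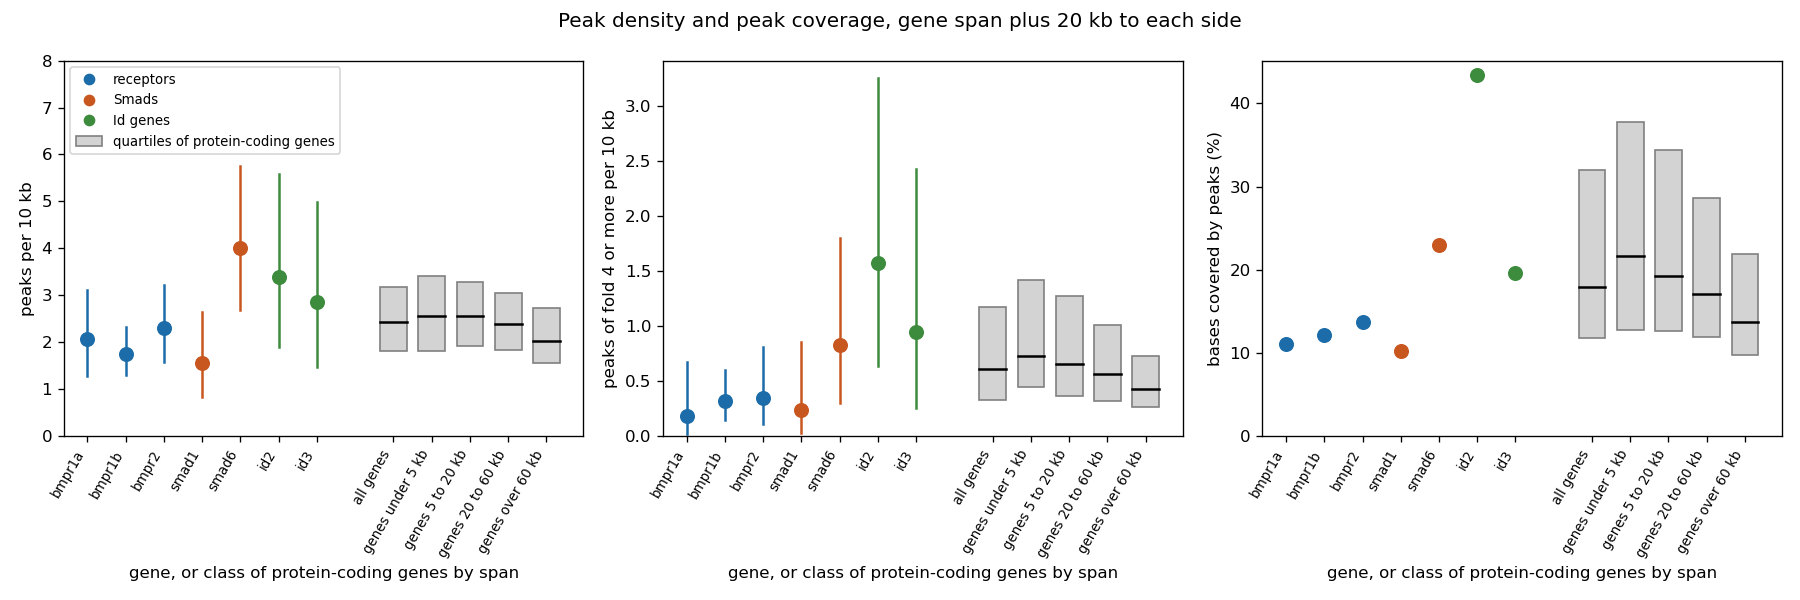
Peak density per 10 kb (left), density of peaks with a fold of at least 4 (middle) and share of bases covered by peaks (right) for each member region, with exact Poisson 95% intervals on the densities. Grey boxes give the quartiles and black lines the medians of protein-coding genes, in all and by span length. The receptors and smad1 sit low in the middle panel, from 0.187 to 0.348, and id2 stands highest, at 1.58.

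For the members, peaks of all heights showed the same order of groups with smaller differences. The median density of the members was 2.06 peaks per 10 kb for the receptors, 2.78 for the 2 Smads and 3.12 for the 2 Id genes, against 2.42 over all protein-coding genes. By span length, the median was 2.03 over genes over 60 kb, close to the receptors, 2.39 over genes of 20 to 60 kb and 2.56 over genes under 5 kb. Pooled over each group's bases, the densities were 1.96 (1.61 to 2.38), 2.69 (1.94 to 3.63) and 3.13 (2.06 to 4.55). The intervals overlapped between every pair of groups. Outside the members, id4 had 1.33 per 10 kb (0.487 to 2.89), below every receptor, so the order does not hold for all measured Id genes. With flanks of 50 kb the order did not hold, since the medians were then 1.71 for receptors, 2.94 for Smads and 2.47 for Id genes. The median fold differed little, at 3.14, 3.22 and 3.29, and all 3 values lay within 1 fold step of each other.

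Median peak width was 483 bp (425 to 568) around receptors, 515.5 bp (426 to 601) around Smads and 792 bp (487 to 1168) around Id genes, against 569 bp in the whole list. These intervals are the binomial intervals of a median. By span length, the typical median width per gene was 521 bp over genes over 60 kb, 555 bp over genes of 20 to 60 kb and 619 bp over genes under 5 kb. Each lay inside the interval of the group of that length, receptors, Smads and Id genes in turn. Peaks wider than 1 kb numbered 11 of 105 (10.5%), 5 of 42 (11.9%) and 10 of 27 (37.0%), against 23.5% of all peaks in the list, and 8 of the 10 at Id genes belonged to id2. Across the 174 peaks, width and fold had a Spearman correlation of 0.39, a description of peaks from a single library that share their depth. Within id3 the correlation was -0.40 over 12 peaks, and within id2 it was 0.75 over 15.

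**Figure D2:**
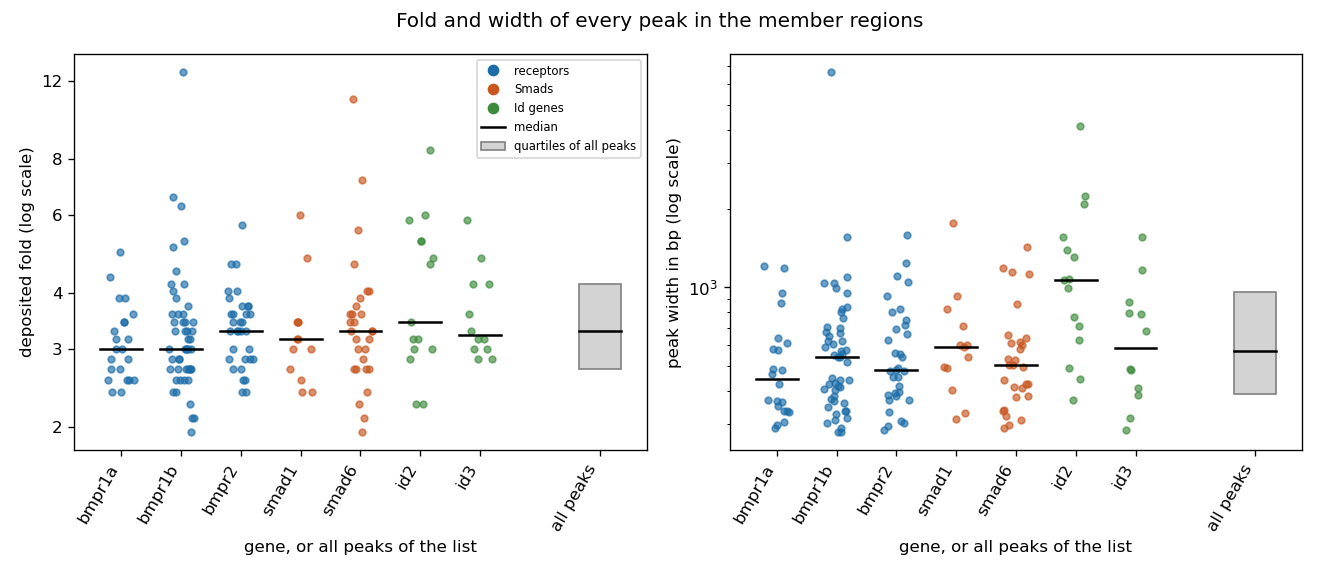
Fold (left) and width in bp (right) of every peak in the member regions, each on a log scale, with 1 point per peak and a black line at the median of each gene. The grey box gives the quartiles of all 311625 peaks. Median folds lie between 2.99 and 3.44, while the median width of id2, 1068 bp, stands above those of the other members, which lie between 445.5 and 591 bp.

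Bmpr1a, which encodes a widely used type I receptor, had the lowest highest peak of the receptors, with a median fold of 2.99, as at bmpr1b. Its region of 106.7 kb held 22 peaks with folds of 2.40 to 4.94. Its highest peak lay inside the gene on chromosome 7 at 49331953 to 49333154, with 32 fragments at the summit (21.9 to 45.2). The left end was covered by a peak 1179 bp wide with a fold of 3.44 and 22 fragments (13.8 to 33.3), close to the median peak of the list. The nearest peak to the right end lay 1285 bp away. Of its peaks, 11 had summits inside the gene, 3 in the left flank and 8 in the right flank, which is 1.65 per 10 kb inside the gene and 2.75 per 10 kb in the flanks.

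Bmpr1b, which encodes the type I receptor known in mouse and human for its role in digit cartilage, had the largest region, 284.5 kb with 50 peaks. It also had the strongest peak of all 7 regions, at 76252171 to 76258830 on chromosome 1, with a fold of 12.6 and 83 fragments (66.1 to 102.9). This peak was 6660 bp wide, lay 72.4 kb inside the right end and made up 19.2% of the bases covered by the region's peaks. The second-highest peak, with a fold of 6.59 and 43 fragments (31.1 to 57.9), covered the right end at 76324552 to 76325221. At the left end the nearest peak lay 1183 bp away. The other end of the span was sparse: from 76083467 to 76122993, a stretch of 39.5 kb, no peak was called. Stretches of that length were uncommon, and 99.0% of protein-coding genes had a shorter longest gap, although genes over 60 kb had a median of 16.5 kb and an upper quartile of 23.8 kb. The nearest peaks to the gap had folds of 2.69 and 2.99. The stretch between the gap and the strong peak held scattered peaks with folds of up to 6.29.

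Bmpr2, which encodes the type II receptor, had 33 peaks over 143.7 kb, with folds of 2.40 to 5.69. A narrow peak of 455 bp covered the left end, with a fold of 3.89 and 25 fragments (16.2 to 36.9). The nearest peak to the right end lay 3738 bp away. Its highest peak lay 16.0 kb beyond the right end at 52468981 to 52469470 on chromosome 9, with 37 fragments (26.1 to 51.0). That peak was part of a group of 7 peaks with summits 10.1 to 18.9 kb beyond the right end, a stretch in which the table lists no other gene. The right flank thus held 9 summits and the left flank 2, whose densities were 4.50 and 1.00 per 10 kb. Both other receptors also had more summits in the right flank, 8 against 3 at bmpr1a and 6 against 4 at bmpr1b. Of those right-flank summits, 1 at bmpr1a lay inside the neighbouring gene mmrn2 and 2 at bmpr1b inside the neighbouring gene LOC116411998. Without strand these sides cannot be named upstream or downstream, nor matched from 1 gene to another.

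**Figure D3:**
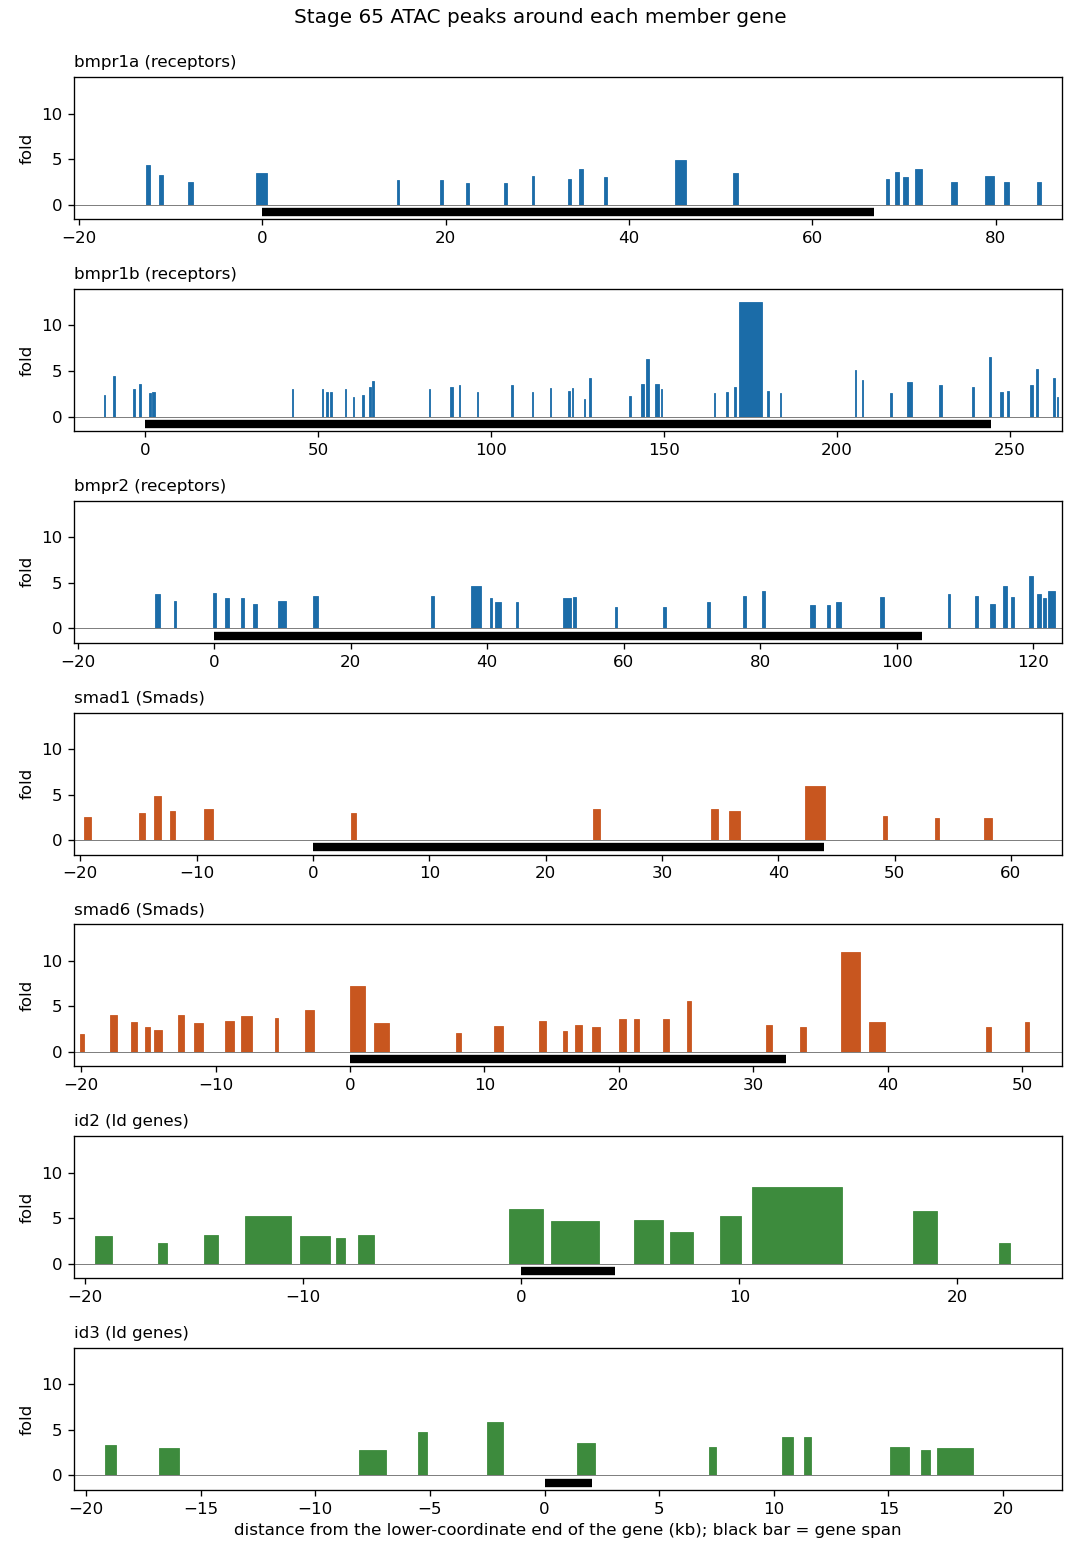
Peaks in each member region, drawn from start to end of the peak (kb from the left end of the gene) with the deposited fold as height, and the gene span as a black bar. Each panel has its own horizontal scale and all share the fold axis. The peak with a fold of 12.6 inside bmpr1b, the peak with a fold of 10.9 beyond smad6 and the row of wide peaks from id2 to the right stand out.

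The Smad genes differed from each other in peak density. Smad1, which encodes a receptor-activated Smad, had the lowest density of the members, with 13 peaks over 83.9 kb or 1.55 per 10 kb (0.825 to 2.65). Smad6, which encodes the inhibitory Smad, had the highest, with 29 peaks over 72.5 kb or 4.0 per 10 kb (2.68 to 5.75). Their intervals did not overlap, though the bounds of 2.65 and 2.68 nearly met. With flanks of 10 kb they overlapped (0.541 to 2.47 and 2.33 to 5.89), and with flanks of 50 kb they did not (1.29 to 2.81 and 2.93 to 5.15). They also overlapped when only peaks with a fold of at least 4, or a −log10 q of at least 5, were counted. The median over genes of 20 to 60 kb, the class of both, was 2.39, with quartiles of 1.84 and 3.06, so smad1 lay below and smad6 above the middle 50% of that class. Smad6 exceeded 93.1% of all protein-coding genes in density, and smad1 exceeded 15.9%. Smad6 was less extreme in other measures, at 62.7% both for bases covered and for density of strong peaks. For smad1 these were 17.8% and 18.6%.

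At smad1 the peaks left wide stretches empty. Its strongest peak had a fold of 5.99 and 39 fragments (27.7 to 53.3), covered the right end at 58629001 to 58630754 on chromosome 1 and was 1754 bp wide. Among the 7 members, smad1 was the only gene whose highest peak lay at a gene end, a pattern found in 16.2% of protein-coding genes. The nearest peak to the left end lay 3232 bp away. Inside the gene, 20.3 kb from 58590451 to 58610774 held no peak. Its next-highest peak, with a fold of 4.79, lay 13.4 kb beyond the left end, where the neighbouring gene mmaa begins 9.27 kb away. Of the 5 summits of the left flank, 4 lay inside mmaa, so that 1 of the 2 strong peaks of the region overlapped that gene.

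At smad6 no other gene lay within 20 kb. Summits numbered 4.0 per 10 kb inside the gene, 5.5 in the left flank and 2.5 in the right flank. The left end was covered by a peak with a fold of 7.19 and 47 fragments (34.5 to 62.5), at 117263196 to 117264315 on chromosome 3. A stronger peak, with a fold of 10.9 and 72 fragments (56.3 to 90.7), lay 4.63 kb beyond the right end at 117299747 to 117301170. The left flank held 11 summits with folds of up to 4.64, and the right flank held 5. The longest stretch without a peak was 7.53 kb, against a median of 11.2 kb in genes of 20 to 60 kb.

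Smad9 encodes a further receptor-activated Smad. Its region of 60.4 kb held 17 peaks, or 2.81 per 10 kb, with folds of 2.40 to 4.64. Peaks lay at both ends, with folds of 4.34 at the left and 2.84 at the right. Its density fell between those of smad1 and smad6, and its highest peak was the weakest highest peak among the 3. The 17 peaks included 3 with summits inside the coding gene rfxap, among them a peak with a fold of 4.34. Rfxap begins 3.94 kb beyond the right end of smad9. Others had summits inside the lncRNA gene LOC116408713 on the left, and the outermost summit on the right lay 20.3 kb from smad9.

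The Id genes are short, and nearly all of their peaks lay outside the spans: 2 of 27 summits (7.41%, 0.910 to 24.3) were inside, where the spans made up 7.38% of the regions. For comparison, 73 of 105 summits (69.5%, 59.8 to 78.1) lay inside the receptor genes, which made up 77.6% of their regions, and 18 of 42 (42.9%, 27.7 to 59.0) inside the Smad genes, which made up 48.8%. The share inside thus followed the share of the region that the span took up, which lay inside the interval in each group, near the upper bound for the receptors.

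Id2 was the most widely covered member. Peaks covered 43.5% of its region of 44.3 kb, more than in 84.7% of protein-coding genes, against a median of 21.6% and an upper quartile of 37.8% in genes under 5 kb. A peak 1562 bp wide, with a fold of 5.99 and 39 fragments (27.7 to 53.3), covered the left end at 137437861 to 137439422 on chromosome 5. That peak also overlapped LOC116411071, an lncRNA gene that ends 0.183 kb from id2, and the signal of these neighbours cannot be told apart. A second peak of 2233 bp, with a fold of 4.64, covered most of the rest of the gene. To the right followed peaks with folds of 4.79, 3.44, 5.24 and 8.38, whose summits lay 1.34, 3.46, 5.26 and 8.28 kb beyond the right end. The last of these, at 137449006 to 137453147, was the highest of the region with 55 fragments (41.4 to 71.6). It was 4142 bp wide and reached into the gene kidins220, which begins 9.44 kb from id2. To which of these genes the peak relates is not known.

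Id3 had 12 peaks over 42.1 kb, which covered 19.6% of the region. Its only gene-end peak covered the right end with a fold of 3.59 and 23 fragments (14.6 to 34.5), near the median of the list. The highest peak lay 2.29 kb beyond the left end at 78342394 to 78343074 on chromosome 2, with a fold of 5.84 and 38 fragments (26.9 to 52.2). A second strong peak lay 5.30 kb beyond the left end (fold 4.79), and a pair with folds of 4.19 each lay 8.42 and 9.43 kb beyond the right end. Strong sites thus lay on both sides of id3 but not within 1 kb of it. Id4, the remaining Id gene found in the table, had 6 peaks in its region, or 1.33 per 10 kb, and a fold of 5.09 at its left end. The interval of that density, 0.487 to 2.89, overlapped those of id2 (1.89 to 5.58) and id3 (1.47 to 4.98). The density itself lay below that of each receptor, and the intervals overlapped there too.

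Every one of the 7 members had a peak within 1 kb of a gene end, which 85.7% of protein-coding genes also had. A gene-end peak with a fold of at least 4 was present at 4 of 7 members (bmpr1b, smad1, smad6 and id2), against 50.6% of protein-coding genes. Both ends were occupied at id2 alone, 1 of 7, against 45.2%. The first and second of these shares were near the background. Several unoccupied ends were near the limit, since the nearest peak lay 1037 bp from the right end of smad6, 1183 bp from the left end of bmpr1b and 1285 bp from the right end of bmpr1a. At the right end of id2, which was counted as occupied, the nearest peak lay 731 bp away.

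At 1 of the 7 members the highest peak of the region lay at a gene end, near the 16.2% of protein-coding genes of which this was true. At bmpr1b and smad6 the highest peak had 83 and 72 fragments, and the gene-end peak had 43 and 47. The intervals did not overlap at bmpr1b (66.1 to 102.9 for the highest peak and 31.1 to 57.9 for the gene-end peak), and they overlapped at smad6 (56.3 to 90.7 and 34.5 to 62.5). At bmpr1a, bmpr2, id2 and id3 the intervals overlapped too. The highest peak was picked for its height, so it could not be lower than the gene-end peak. The intervals do not take that choice into account, and a difference in height was not tested.

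**Figure D4:**
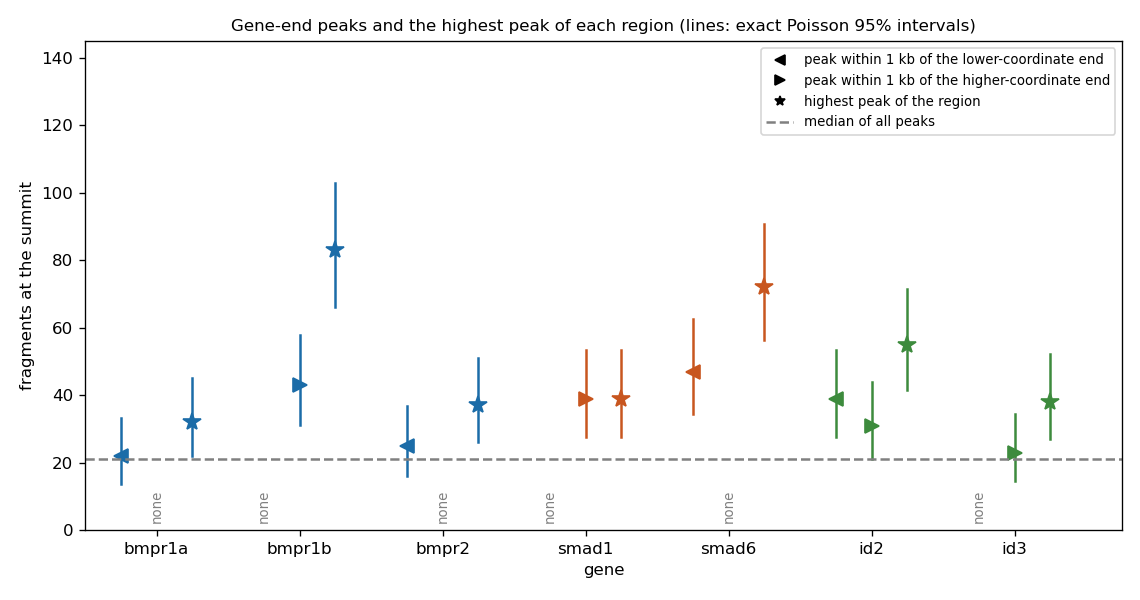
Fragments at the summit of the best peak within 1 kb of each gene end and of the highest peak of each region, with exact Poisson 95% intervals, and the median of all peaks, 21, as a dashed line. The word none marks an end without a peak within 1 kb. At smad1 the right-end peak and the highest peak are the same, with 39 fragments. At bmpr1b the highest peak has 83 fragments and the gene-end peak 43. The highest peak was picked for its height, which the intervals do not take into account.

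By position, summits inside the receptor genes and more than 1 kb from an end numbered 1.71 per 10 kb (1.33 to 2.16), against 2.002 in all genes over 60 kb. From 1 to 5 kb outside the receptor genes they numbered 3.75 per 10 kb (1.71 to 7.12), against 2.42 around genes of that length, and from 5 to 20 kb outside 2.56 (1.62 to 3.83), against 2.34. Smads and Id genes each had 21 summits from 5 to 20 kb outside, or 3.50 per 10 kb (2.17 to 5.35), against 2.48 around all protein-coding genes. All of these background values lay inside the intervals of the members.

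At the 20 kb limit of the regions, the outermost peaks beyond each gene end had folds of 1.95 to 4.34 (median 2.77), and the first peaks beyond the limit had folds of 2.25 to 4.64 (median 3.07). The 2 ranges overlapped widely. With 14 peaks in each set, a change in peak height at the limit was not tested.

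Other genes were read from 3 lists. Besides genes of the BMP pathway, the lists hold genes of the related TGF-beta and activin pathways, such as acvr1c, tgfbr1, smad2 and smad3. Of the further receptors and co-receptors, 13 of 14 had a gene-end peak and 9 had one with a fold of at least 4, against 85.7% and 50.6% of all protein-coding genes, with a median density of 2.71 peaks per 10 kb. The highest gene-end folds were 6.89 at rgmb, a BMP co-receptor gene, 5.84 at acvr1c, 5.69 at hjv, which encodes the co-receptor hemojuvelin, and 5.54 at acvr1, a type I receptor gene. Eng, which encodes the endothelial co-receptor endoglin, had no gene-end peak. Its region still held 28 peaks with folds of up to 19.5.

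Further Smads and Smad regulators had a gene-end peak in 16 of 16 measured genes and one with a fold of at least 4 in 15, against 85.7% and 50.6% of all protein-coding genes, with a median density of 2.88. The count of 16 was 11 with only peaks of at most 2 kb, and 13 with peaks assigned by summit. The share of all protein-coding genes was not counted again under those settings. The highest gene-end folds were 15.4 at ctdsp1, which encodes a phosphatase, 13.03 at nedd4l, a ubiquitin ligase gene, 11.98 at smad4.2, a gene of the common partner Smad, and 11.5 at smad7, which encodes the other inhibitory Smad. These folds exceed the 7.19 of smad6, the best gene-end fold among the members. Peaks covered 63.6% of the smad4.2 region, 53.8% at ctdsp1, 41.7% at smad7 and 34.5% at nedd4l, against 23.0% at smad6.

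Further target genes had a gene-end peak in 16 of 19 measured genes and one with a fold of at least 4 in 9, near the 85.7% and 50.6% of all protein-coding genes, with a median density of 2.38. The best gene-end fold was 20.7 at sox9, the chondrocyte regulator, followed by 5.84 at runx2, the osteoblast regulator, and 5.54 at both dlx5 and snai2. The homeobox genes ventx1.2, ventx2.2 and ventx3.2, which in the early Xenopus embryo act downstream of BMP signalling on the ventral side, had none. Their regions held 9, 10 and 10 peaks. Over all 3 lists the median density was 2.72 peaks per 10 kb in 49 measured genes, against 2.42 in all protein-coding genes.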

How the data were processed

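ATAC-seq of the urostyle was deposited as 1 peak list per library, and the stage 65 list was used. Per the submitters' processing notes, Bowtie2, Picard, MACS2 and Genrich were used, without versions or roles. Not given in the sources used here were genome build, read filters, read shift and total read count. The deposited values were a fold (ratio) per peak, −log10 p, −log10 q of at least 1.45, and a score of 10 times the deposited −log10 q. Chromosome names matched the gene table, and the last peak of each chromosome ended 1.88 to 191 kb beyond the last coding gene there. Positions are those of the deposited list, written 1-based. The lists of stages 56 and 61 use other chromosome names and were not used here.

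From the folds, 100% of those under 100 were whole multiples of the step within 0.01, and, taking a pseudocount of 1 in the fold, a Poisson tail with mean 5.68 gave the deposited −log10 p with a median difference of 3.3e-06. A peak belonged to a region when it shared at least 1 bp, and lay inside or outside a gene by its summit. Density is peaks per 10 kb. With 1 library, nothing was tested.

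The members and gene lists were chosen with earlier results of these data known. All members are named, and from each list the 4 highest gene-end folds and every gene without a gene-end peak. Id4 and smad9 are named besides as the nearest relatives of members. Counting was checked on simulated data. Python 3.11.15, numpy 2.4.6, pandas 2.3.3 and scipy 1.17.1 were used.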

Additional observations from a re-analysis of the deposited data

How the results depend on the processing

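Of 113 comparisons of a group value with an alternative setting, 94 stayed within the counting interval of the value (counts within 1.5 times) and 19 moved. These counts do not measure robustness, since several outcomes were set in advance. Keeping only peaks above a limit of fold or −log10 q can only lower the density and cannot lower the median fold. The pooled densities had to stay, because the interval used was their own. With flanks of 10 kb the share of summits inside genes was 83.0% for receptors and 64.3% for Smads, and with flanks of 50 kb it was 55.7% and 22.5%, as shorter or longer flanks set by construction. With peaks of fold 4 or more only, density was 0.316, 0.533 and 1.27 per 10 kb for receptors, Smads and Id genes and median fold 4.64, 5.17 and 5.24. Median width was then 647.5 bp for receptors and 628.5 bp for Smads, 1 receptor and 1 Id gene kept a gene-end peak, and 56.25% of receptor summits lay inside. With −log10 q of at least 5, density was 0.937 for receptors and 1.66 for Smads, and median fold 3.59 for both. In density as reported, smad1 lay below every receptor and smad6 above both Id genes, so the Smad value stood between unlike genes. For group values of the members only, without id4, the order receptors, Smads, Id genes held for density in 8 of 9 settings. It held for width in 7 of 8 and for fold in 5 of 8, the value as reported counted as a setting. The settings draw on the same peak list, and assigning peaks by summit gave the same group values as reported. Counting smad9 among the Smads and the counts of the other gene lists under other settings were chosen after seeing the data. Smad9 moved no Smad value beyond its interval. With a gene-end window of 500 bp all counts of members stayed the same. The window of 2.5 kb could not change them, since every measured member already had a gene-end peak. Of 116 comparisons for single genes and the other lists 16 moved, 15 of them under fold 4 or −log10 q 5. The best gene-end fold of id3 was 5.84 with the 2.5 kb window, against 3.59. Using gene starts only was not run, since strand was not given. No paired analysis was possible because each stage has 1 library. The median of 21 fragments per summit limits the precision of all of these values.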

Other observations

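The table holds a second gene named for the inhibitory Smad, smad6.2, which was chosen once its values had been seen. Its region on chromosome 8 held 13 peaks that covered 79.9% of 53.6 kb, against 23.0% at smad6 and 17.9% in the median protein-coding gene. Its median fold was 6.74 and its median peak width 2840 bp, against 3.29 and 504 bp at smad6. The coding gene zbtb7b begins 15.1 kb beyond the right end of smad6.2. Of the 13 summits, 2 lay inside zbtb7b, among them that of the second-highest peak, with a fold of 16.0. The highest peak, at 145242259 to 145257687, had a fold of 38.5 and was 15429 bp wide. Its summit lay 19.9 kb beyond the left end, and the peak extends beyond the 20 kb limit of the region. The peaks within 1 kb of the ends of smad6.2 were not the strongest, with folds of 6.14 at the left and 2.40 at the right. Smurf2, a ubiquitin ligase gene that acts on Smads and BMP receptors, also had a widely covered region, with 81.2% of bases in peaks and a median fold of 7.79, and was chosen in the same way.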
